A study of Homo sapiens with 16 samples.

Results

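The comparison set all 8 arrays of SAOS cells given RB against all 8 arrays of SAOS cells not given RB, out of 16 arrays in all. SAOS is an established human osteosarcoma line, known for lacking functional RB, the retinoblastoma protein. The 8 arrays with RB were 4 of cells transiently transfected with human RB (RB) and 4 of cells transfected with human RB together with mouse SMYD2 (RB plus SMYD2). The 8 arrays without RB were 4 of untransfected SAOS cells (control) and 4 of cells transfected with mouse SMYD2 alone (SMYD2). SMYD2 is a lysine methyltransferase. All 16 arrays come from the same line, and no group is labelled as given an empty vector. The effect of RB and the effect of transfection cannot be told apart on the arrays without SMYD2, whereas both groups with SMYD2 were transfected. Within a group the arrays are numbered 1, 3, 4 and 5. Separate cultures are not stated, and the spread that the p-values are based on may therefore be technical. The arrays were assigned to the groups by their titles alone. The arrays, gene lists and tests were chosen with earlier results of these data known.

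RB binds the E2F transcription factors and represses the genes that E2F activates, many of which encode enzymes of DNA replication and are read at the transition into S phase. Its relatives RBL1 and RBL2 act within the DREAM complex, in which the MuvB core holds down later genes of mitosis through a promoter element called CHR, often next to CCAAT boxes bound by NF-Y. In dividing cells the MuvB core joins MYBL2 and FOXM1 instead and helps to activate the same mitotic genes. Replication-dependent histone genes are a separate class. They are transcribed in S phase from promoters that often carry an octamer bound by OCT1 as well as CCAAT and TATA boxes, and their transcripts end in a stem-loop in place of a poly(A) tail.

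In cells given RB, most genes of DNA replication and mitosis fell. Of the genes measured, 11 of 13 replication-dependent histone genes, 19 of 32 matrix genes and 12 of 24 lysosomal genes rose, beside 10.7% of all genes, and the matrix count was 9 without the replicate number in the model. The largest fall was that of SPC25, a subunit of the NDC80 complex that attaches chromosomes to microtubules, by 1.03 ± 0.08 (SE) on the log2 scale. The largest rise was that of H2BC4, a gene for a core histone H2B, by 1.77 ± 0.10. Promoters of 7 genes are printed with letter matches to some of the elements named above. All of these genes but CDT1 are among the largest differences. Size alone did not decide which are printed, since H4C8 and CRYBA2 rose more than H2BC21 and are left out. CDT1 was the largest decrease in the replication lists with an E2F match, a choice made after its values were seen. Each run covers 250 bases before to 50 after the transcription start in RefSeq on GRCh38.p14, read 5′ to 3′ on the gene's strand, with motif matches in capitals. In the promoters of SPC25 (chr2:168890381-168890680, minus strand), ASPM (chr1:197146620-197146919, minus strand) and SKA1 (chr18:50374796-50375095, plus strand) the capitals mark TTTGAA, the core letters of the CHR, and CCAAT, each on either strand.
SPC25: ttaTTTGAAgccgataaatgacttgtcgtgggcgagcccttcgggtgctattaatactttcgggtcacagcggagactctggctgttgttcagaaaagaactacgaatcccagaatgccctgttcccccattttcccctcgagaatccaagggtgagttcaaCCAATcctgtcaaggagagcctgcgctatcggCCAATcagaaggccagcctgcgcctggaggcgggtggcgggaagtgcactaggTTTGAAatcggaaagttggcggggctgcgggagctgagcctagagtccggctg
ASPM: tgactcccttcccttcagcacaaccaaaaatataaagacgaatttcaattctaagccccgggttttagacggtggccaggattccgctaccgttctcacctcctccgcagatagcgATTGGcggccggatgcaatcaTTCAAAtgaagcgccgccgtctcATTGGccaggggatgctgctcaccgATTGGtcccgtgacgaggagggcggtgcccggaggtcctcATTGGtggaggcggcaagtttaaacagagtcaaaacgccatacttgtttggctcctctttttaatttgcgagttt
SKA1: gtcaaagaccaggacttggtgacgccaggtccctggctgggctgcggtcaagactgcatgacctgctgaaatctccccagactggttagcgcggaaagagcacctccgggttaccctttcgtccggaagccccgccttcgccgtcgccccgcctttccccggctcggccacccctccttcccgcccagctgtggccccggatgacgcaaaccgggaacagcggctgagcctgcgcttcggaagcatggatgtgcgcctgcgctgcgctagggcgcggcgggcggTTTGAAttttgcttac
In the promoters of MND1 (chr4:153344438-153344737, plus strand) and CDT1 (chr16:88803539-88803838, plus strand) they mark an 8-base E2F match, which reads on the opposite strand.
MND1: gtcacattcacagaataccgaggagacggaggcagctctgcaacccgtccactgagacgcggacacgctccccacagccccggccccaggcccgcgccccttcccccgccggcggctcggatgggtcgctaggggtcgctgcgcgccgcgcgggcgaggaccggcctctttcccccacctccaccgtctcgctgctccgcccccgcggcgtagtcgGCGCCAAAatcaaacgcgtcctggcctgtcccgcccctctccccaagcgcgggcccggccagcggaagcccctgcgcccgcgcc
CDT1: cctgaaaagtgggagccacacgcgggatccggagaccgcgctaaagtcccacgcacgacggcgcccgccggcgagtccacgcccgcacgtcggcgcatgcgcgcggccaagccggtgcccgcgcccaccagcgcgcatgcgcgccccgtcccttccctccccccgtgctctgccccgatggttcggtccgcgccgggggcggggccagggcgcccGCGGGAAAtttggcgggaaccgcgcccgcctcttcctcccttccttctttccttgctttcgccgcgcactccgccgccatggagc
In the promoters of the histone genes H2BC4 (chr6:26123877-26124176, minus strand) and H2BC21 (chr1:149886633-149886932, minus strand) they mark the octamer ATTTGCAT, CCAAT and TATAAA.
H2BC4: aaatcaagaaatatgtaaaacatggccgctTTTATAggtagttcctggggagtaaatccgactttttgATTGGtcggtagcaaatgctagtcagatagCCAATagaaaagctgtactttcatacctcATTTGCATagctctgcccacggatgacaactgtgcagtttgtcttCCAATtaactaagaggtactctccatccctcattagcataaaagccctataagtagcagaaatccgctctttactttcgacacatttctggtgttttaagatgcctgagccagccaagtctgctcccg
H2BC21: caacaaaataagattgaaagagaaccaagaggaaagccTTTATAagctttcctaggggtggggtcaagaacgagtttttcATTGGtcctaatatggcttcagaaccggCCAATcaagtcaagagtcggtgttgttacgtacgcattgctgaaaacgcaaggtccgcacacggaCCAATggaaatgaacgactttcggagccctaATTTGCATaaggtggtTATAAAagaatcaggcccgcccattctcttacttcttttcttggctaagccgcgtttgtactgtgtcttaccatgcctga
SPC25 held a TTTGAA that begins 3 bases before its start site and a pair of CCAAT boxes 56 and 88 bases before it. ASPM held 4 CCAAT boxes, all on the opposite strand, beside 1 TTTGAA. The E2F match began 34 bases before the start in MND1 and 35 bases before it in CDT1. SKA1 held a TTTGAA that begins 34 bases after its start site, and no CCAAT. Both histone promoters held 3 CCAAT boxes and 1 octamer. The only TATAAA of H2BC4 was on the opposite strand, 220 bases before the start. H2BC21 also held one 30 bases before it. Of the 30 genes with the largest differences, 23 had a promoter window in the RefSeq table. The windows of H4C8 and CRYBA2, also among the largest increases, held neither CCAAT nor the octamer in these letters. CRYBA2, which is not a histone gene, held a TATAAA 29 bases before its start site, and H4C8 held none.

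RB1 itself checks the labels. The brighter of its 2 probe sets had a log2 signal of 7.70 ± 0.34 (SD, n = 4) in RB and 8.67 ± 0.90 in RB plus SMYD2, against 6.48 ± 0.32 in control and 6.85 ± 0.17 in SMYD2. The 8 arrays with RB lay between 7.40 and 9.62 and the 8 without between 6.24 and 6.98, so the groups did not overlap. The difference was 1.52, with an exact two-sided permutation p of 0.000155, the smallest that 8 arrays against 8 allow. The mean was also higher in RB plus SMYD2 than in RB, with overlapping arrays. The dimmer RB1 probe set differed by 0.02 (exact permutation p = 0.640). SMYD2, of which the transfected form was mouse, was lower with RB in 8 of 8 same-numbered pairs but differed by -0.11 ± 0.05 (SE, limma adjusted p = 0.130). L3MBTL1, a chromatin reader of methylated lysines, differed by -0.02 ± 0.06 (limma adjusted p = 0.900).

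Across arrays the median log2 signal was 5.59 to 5.64, and the correlation of 2 arrays within 1 group was 0.981 to 0.998. Of 9 osteoblast markers measured, 8 exceeded the median gene (6.88), SPP1 being the exception, while 27 of 29 markers of blood, epithelium, endothelium, muscle, nerve and fat did not, EPCAM and CKM being the exceptions. None of the blood or epithelial markers passed the test, and 1 of the rest did, LEP, at 0.16 ± 0.05. RNA quality was read from the log2 ratio of the 3 prime to the 5 prime ACTB probe sets, which rises with degraded RNA. It was 0.55 to 1.63 with RB and 0.54 to 3.53 without RB. Array 1 of SMYD2 was the highest at 3.53, and array 1 of control followed at 2.46. Array 1 was also the highest within RB (1.63), but not within RB plus SMYD2 (1.17, against 1.215 for array 3). Without array 1 of SMYD2 the pooled fit called 4667 genes, 2472 higher and 2195 lower, in place of the 4121 given below. With the ACTB ratio as a covariate it called 4568, 2469 higher and 2099 lower. The RB1 difference was 1.55 without array 1 of SMYD2.

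The pooled comparison asked which genes differ with RB once SMYD2 and replicate number are taken into account. Of 19775 genes, 4121 (20.8%) passed at a limma adjusted p of 0.05, of which 2110 (10.7%) were higher and 2011 (10.2%) lower in cells given RB. The median difference of all genes was 0.006. RNA was measured in bulk, so fewer cells in a stage of the cell cycle and less RNA per cell cannot be told apart. Most differences were small. Genes that rose had a median difference of 0.29 and genes that fell one of -0.28. Only 26 genes rose by 1 log2 unit or more, and 2 fell by as much, SPC25 and TROAP. At a difference of at least 0.5 there were 296 rises and 358 falls. Among the called genes, 1299 rose and 1404 fell in 8 of 8 same-numbered pairs, beside 15% of all genes tested that had 1 sign in all pairs. All 8 arrays with RB lay above all 8 without for 325 genes (1.64% of those tested) and below them for 525 (2.65%). Without the replicate number in the model 2636 genes passed, 1311 higher and 1325 lower, and 2635 of these were among the 4121.

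**Figure D1:**
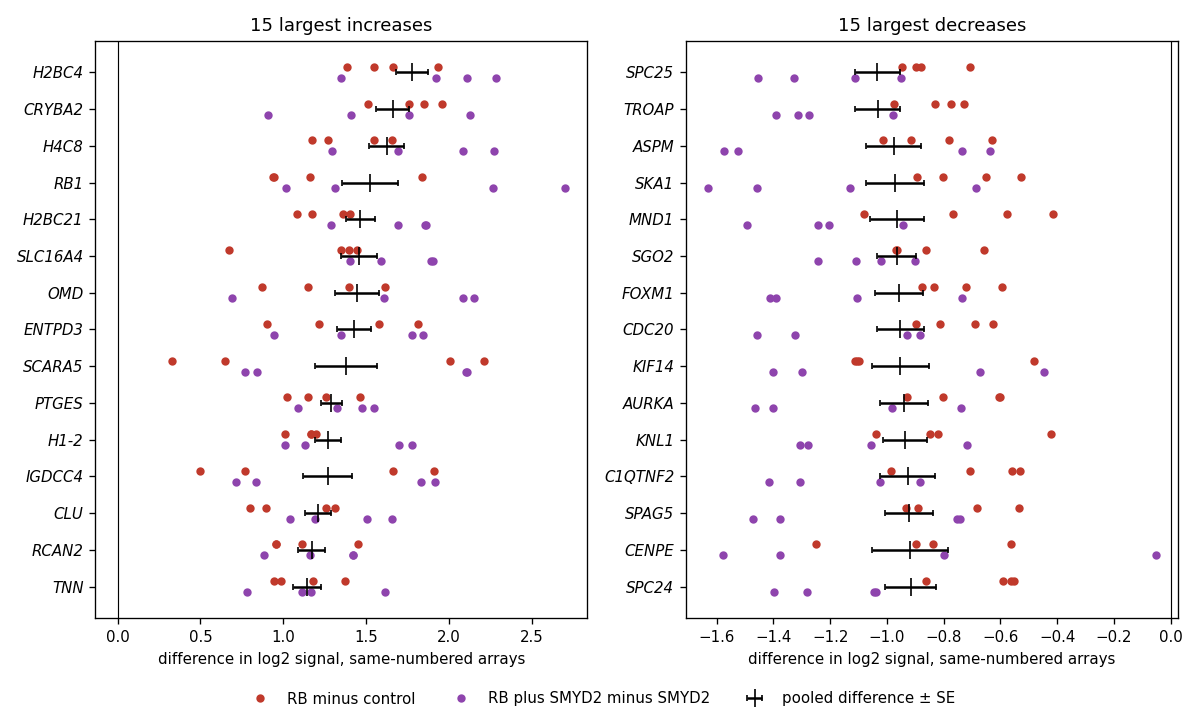
Difference in log2 signal for the 15 largest increases (left) and the 15 largest decreases (right) that passed the test with 1 sign in 8 of 8 pairs. Red points are RB minus control and purple points RB plus SMYD2 minus SMYD2, one per replicate number, and black bars are the pooled difference ± SE. Increases reach 1.77 and decreases 1.03, and one purple point of CENPE lies near 0, at -0.05.

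Among the largest decreases, genes of the kinetochore and spindle lead. SPC25 had a lowest, median and highest log2 signal of 7.37, 8.06 and 8.29 in the 8 arrays with RB, against 8.67, 8.97 and 9.24 in the 8 without. All arrays with RB were below all arrays without, and the fall was 2.05-fold (limma adjusted p = 1.49e-07). TROAP, a tubulin-binding protein of the spindle, had 9.36, 9.72 and 9.80 with RB, against 10.46, 10.66 and 10.82 without, again with no overlap. It fell by 1.03 ± 0.08 (limma adjusted p = 1.25e-07). SKA1, which helps kinetochores follow microtubules, had 7.04, 7.75 and 8.05 with RB, against 8.36, 8.66 and 8.76 without. ASPM, which focuses spindle poles, had 9.22, 9.71 and 9.93 with RB, against 9.86, 10.71 and 10.86 without, and its groups overlapped slightly. SGO2, which protects centromeric cohesin, fell by 0.97 ± 0.07, MND1, a partner of the recombinases, by 0.97 ± 0.10, and FOXM1, the transcription factor of mitotic genes, by 0.96 ± 0.08. The others were CDC20, KIF14, AURKA, KNL1, SPAG5, CENPE and SPC24, all genes of mitosis, and C1QTNF2, a secreted protein of the C1q and TNF family, which fell by 0.93 ± 0.10. SPC24, the partner of SPC25, fell in only 1 of its 2 probe sets by sign. CENPE, a kinesin of the kinetochore, read 8.30 on array 1 of SMYD2, far below the other arrays without RB, and its pair difference there was -0.05. Of the 15 decreases, 12 had no overlap between the groups, and fold changes ran between 1.89 and 2.05.

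The smallest p-values among genes that fell belonged to NUSAP1, UBE2C, SGO2, H2AX and SKP2. NUSAP1, which bundles spindle microtubules, had 10.77, 11.09 and 11.25 with RB, against 11.80, 11.87 and 11.92 without. Its arrays did not overlap. UBE2C, the ubiquitin-conjugating enzyme of the anaphase-promoting complex, had 11.75, 12.11 and 12.34 with RB, against 12.83, 12.91 and 12.97 without. SKP2, the F-box protein that marks the CDK inhibitor p27 for destruction, fell by 0.59 ± 0.04 (limma adjusted p = 1.02e-07).

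The largest increases were led by histone genes. H2BC4 read 8.99, 8.87, 8.29 and 7.98 in RB and 9.05, 8.73, 8.30 and 8.39 in RB plus SMYD2 (replicates 1, 3, 4 and 5), against 7.06, 7.49, 6.63 and 6.44 in control and 6.77, 7.38, 6.19 and 6.47 in SMYD2. All 8 arrays with RB were above all 8 without, and the rise was 3.42-fold (limma adjusted p = 9.53e-09). H4C8, a histone H4 gene, had a lowest, median and highest of 9.35, 9.88 and 10.35 with RB, against 7.75, 8.33 and 8.66 without. H2BC21, another H2B gene, had 10.14, 10.55 and 10.98 with RB, against 8.94, 9.12 and 9.35 without. H1-2, a linker histone, rose by 1.27 ± 0.08.

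The other large increases fell into no single class. CRYBA2 encodes a crystallin of the eye lens. It rose by 1.66 ± 0.10, yet its groups overlapped at array 1 of SMYD2, which read 6.81, above the lowest array with RB (6.45). The other arrays without RB read 5.98 or less. SLC16A4, a monocarboxylate transporter, rose by 1.46 ± 0.11 and OMD, osteomodulin of bone matrix, by 1.44 ± 0.13, both with no overlap. ENTPD3, an ectonucleotidase, rose by 1.43 ± 0.10, and SCARA5, a ferritin receptor, by 1.38 ± 0.19. SCARA5 read 8.48 in RB and 8.15 in control at replicate 1, but 8.23 and 6.02 at replicate 4. PTGES, prostaglandin E synthase, had the smallest p of all genes. It had 9.32, 9.58 and 9.93 with RB, against 8.13, 8.24 and 8.59 without, a 2.45-fold rise (limma adjusted p = 2.88e-09). CLU, the secreted chaperone clusterin, rose by 1.21 ± 0.08 in all 4 of its probe sets. IGDCC4, RCAN2, an inhibitor of calcineurin, and TNN, a matrix glycoprotein of the tenascin family, rose by 1.27 ± 0.15, 1.17 ± 0.08 and 1.14 ± 0.09. ABCC3, an organic anion exporter, rose by 0.91 ± 0.05 and SRPX2, a secreted sushi-repeat protein, by 0.84 ± 0.05, both among the smallest p-values. RB1 itself is counted among the 15 increases and among the 11 of them with no overlap.

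Gene lists were then counted against the 20.8% of all genes that passed. The 12 lists of the cell cycle and of recombination repair held 226 measured genes, of which 200 fell, 3 rose and 23 did not pass, with a median difference of -0.66 beside 0.006 for all genes. The 3 that rose were RB1 itself, CCND1 and ATR. Without array 1 of SMYD2, 204 fell. On the 8 arrays with SMYD2, where both groups were transfected, 173 fell and 1 rose, beside 4.14% of all genes that fell and 3.32% that rose there. Of the 226 genes, 115 (50.9%) had no overlap between the 8 arrays with RB and the 8 without, beside 4.3% of all genes tested.

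**Figure D2:**
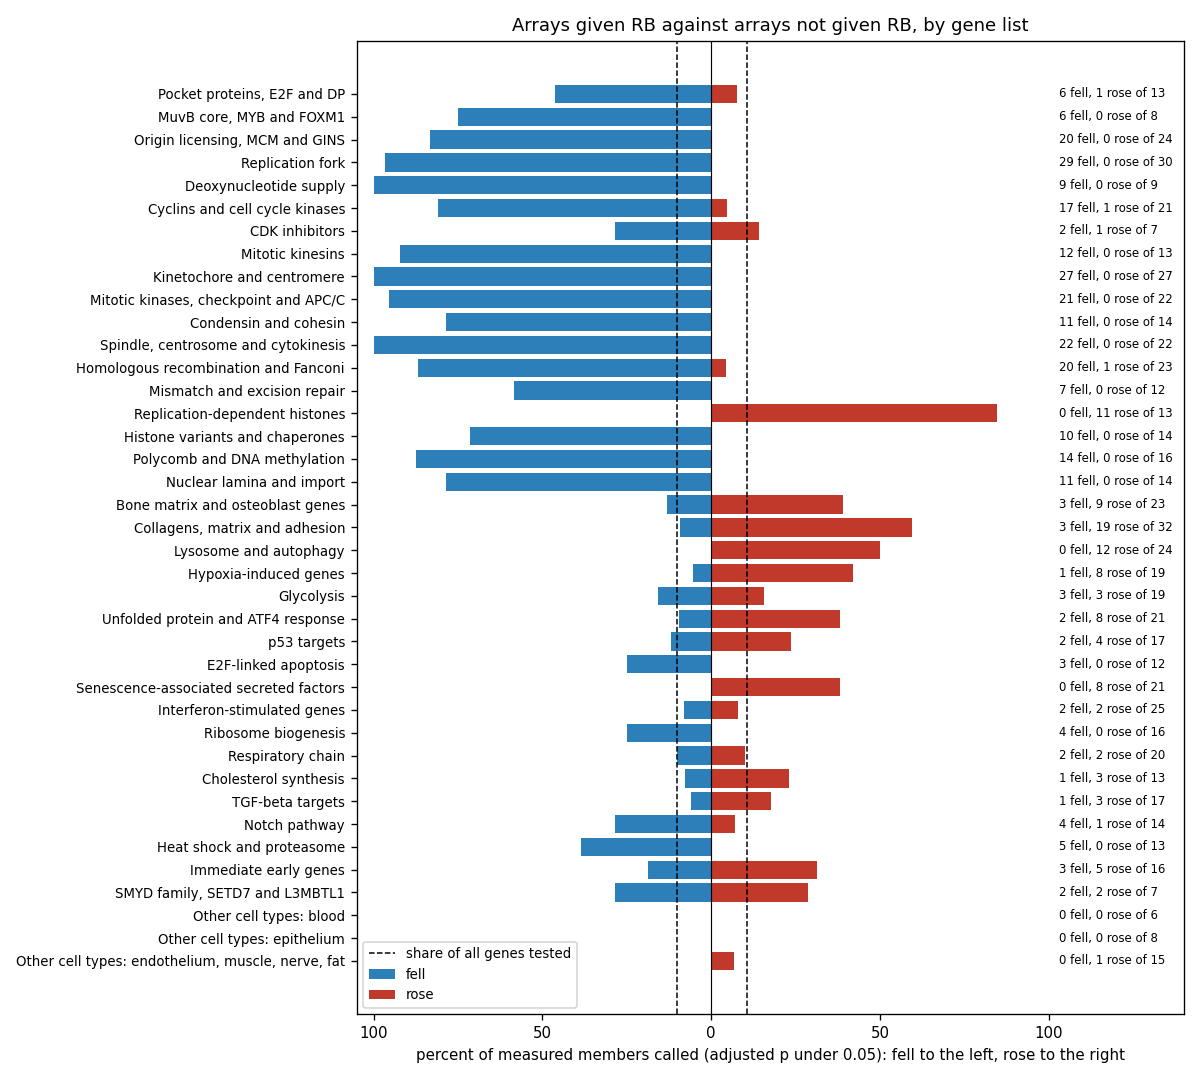
Share of the measured members of each of 39 gene lists that fell (blue, to the left) or rose (red, to the right) in cells given RB, in percent, with counts at the right. Dashed lines mark the 10.2% of all genes that fell and the 10.7% that rose. All 27 kinetochore genes lie on the blue side and 11 of 13 replication-dependent histone genes on the red side.

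Among the regulators, 6 of 13 pocket protein, E2F and DP genes fell. E2F7 and E2F8, the repressor E2Fs that are themselves E2F targets, fell by 0.84 ± 0.10 and 0.84 ± 0.11. E2F2, an activator, fell by 0.73 ± 0.09. E2F1, the best known activator, fell by 0.49 ± 0.06 with no overlap. RBL1, the pocket protein p107, had 5.68, 5.97 and 6.43 with RB, against 6.47, 6.64 and 6.95 without, and fell by 0.67 ± 0.08, though only 1 of its 4 probe sets had that sign. E2F3, E2F4, E2F5, E2F6, RBL2 and TFDP2 did not pass. Of the MuvB core and its partners 6 of 8 fell. MYBL2, the B-MYB activator, fell by 0.79 ± 0.09, MYBL1 by 0.64 ± 0.13, and the core subunits LIN9 and LIN54 by 0.44 ± 0.06 and 0.39 ± 0.08.

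Replication genes fell at each step. Of 24 genes of origin licensing, the MCM helicase and GINS, 20 fell, with a median of -0.64. MCM10, an initiation factor, fell by 0.85 ± 0.12, ORC1, the largest origin recognition subunit, by 0.82 ± 0.08, and CDT1, the licensing factor, by 0.81 ± 0.07. CDT1 had 7.98, 8.33 and 8.60 with RB, against 8.92, 9.09 and 9.43 without. GINS2 and MCM7, both parts of the replicative helicase, fell by 0.79 ± 0.07 each. The 4 members that did not pass were ORC2, ORC3, ORC4 and ORC5, all subunits of the complex that binds origins.

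At the fork, 29 of 30 genes fell, with a median of -0.59. WDHD1, which tethers polymerase alpha, fell by 0.82 ± 0.07, the histone chaperones ASF1B and CHAF1A by 0.81 ± 0.08 and 0.79 ± 0.07, and LIG1, the ligase of Okazaki fragments, by 0.75 ± 0.07. All 9 genes of deoxynucleotide supply fell. TK1, thymidine kinase, had 9.76, 10.20 and 10.39 with RB, against 10.51, 11.02 and 11.14 without, and fell by 0.82 ± 0.08. RRM2, a subunit of ribonucleotide reductase, fell by 0.77 ± 0.09 and TYMS, thymidylate synthase, by 0.66 ± 0.06.

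Of 21 cyclins and cell cycle kinases, 17 fell and 1 rose. CDC25C, the phosphatase that activates CDK1, fell by 0.87 ± 0.11 and CKS1B, a small subunit of CDK complexes, by 0.82 ± 0.07. Cyclin genes CCNA2, CCNB2 and CCNB1 fell by 0.80 ± 0.09, 0.76 ± 0.11 and 0.70 ± 0.13. Their groups overlapped because of array 1 of SMYD2, on which CCNB1 read 10.17, lower than the 10.26 of the lowest array with RB. CCND1, cyclin D1, which starts the inactivation of RB, rose by 0.54 ± 0.10 from a low signal (means of 5.76 with RB and 5.22 without). CDK inhibitors did not move as one. CDKN2B, p15, had 8.41, 8.78 and 9.11 with RB, against 7.27, 7.86 and 8.21 without, and rose by 1.01 ± 0.09 with no overlap. CDKN3, a phosphatase of CDKs, fell by 0.91 ± 0.07 and CDKN2D, p19, by 0.48 ± 0.07. CDKN1A, p21, differed by -0.16 ± 0.07 (limma adjusted p = 0.153) and CDKN1C, p57, by 0.21 ± 0.14 (limma adjusted p = 0.387).

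The 4 mitotic lists had the lowest medians of the 39 lists. Of 13 mitotic kinesins 12 fell, with a median of -0.86, and KIF18A, at -0.36 ± 0.13, did not pass (limma adjusted p = 0.0696), although all 13 fell without array 1 of SMYD2. KIF4A and KIF20A, motors of chromosome condensation and cytokinesis, fell by 0.90 ± 0.08 and 0.87 ± 0.07. All 27 kinetochore and centromere genes fell, with a median of -0.75. NUF2, another NDC80 subunit, had 8.24, 8.76 and 9.07 with RB, against 9.25, 9.61 and 9.80 without. Of 22 mitotic kinases, checkpoint proteins and regulators of the anaphase-promoting complex, 21 fell, with a median of -0.83. AURKA, the Aurora A kinase, fell by 0.94 ± 0.08, and the checkpoint kinases TTK and BUB1 fell by 0.90 ± 0.09 and 0.90 ± 0.10. The remaining one was FZR1, the activator that opens the complex in G1. All 22 spindle, centrosome and cytokinesis genes fell, with a median of -0.79, among them TACC3, by 0.90 ± 0.07, and STIL, a centriole factor, by 0.87 ± 0.08.

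**Figure D3:**
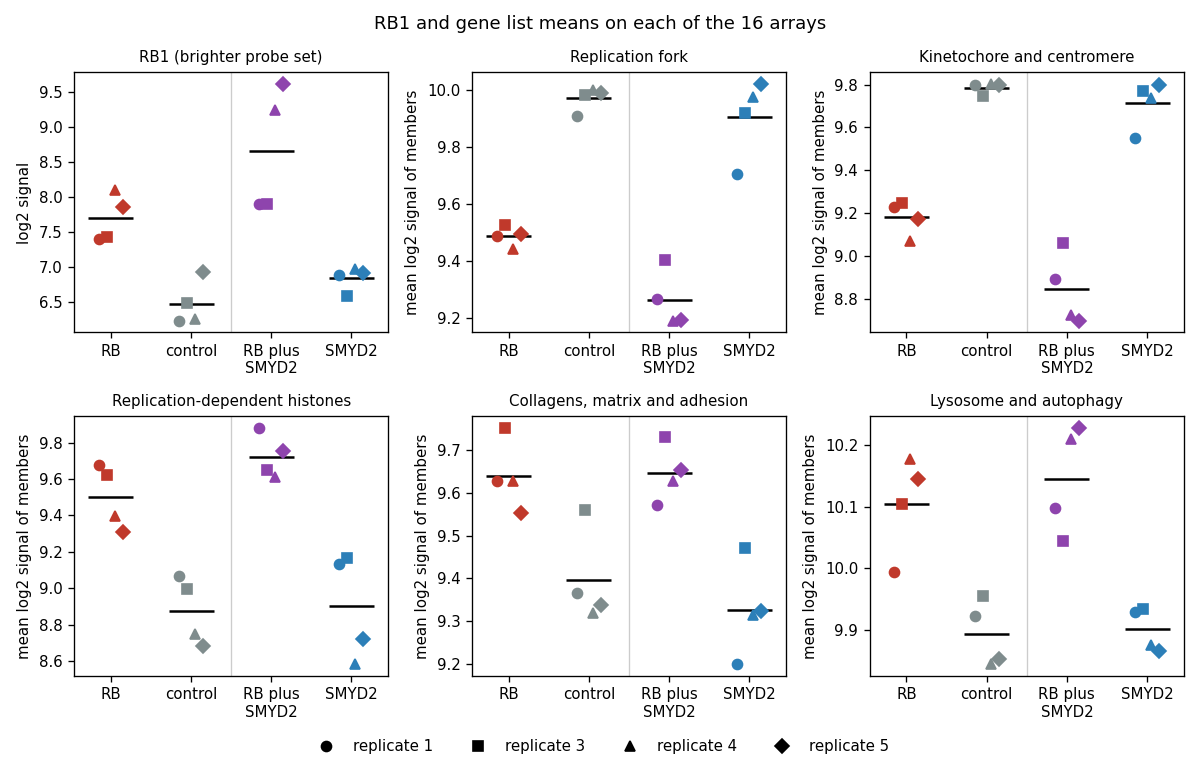
Log2 signal of RB1 and mean log2 signal of the members of 5 gene lists on each of the 16 arrays, with bars at the group means and a symbol for each replicate number. The kinetochore mean was 8.70 to 9.25 with RB and 9.55 to 9.80 without, and the histone mean was 9.31 to 9.88 with RB and 8.58 to 9.17 without. Matrix means overlapped at one array, control 3 (9.56), above the lowest array with RB (9.55).

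Of 14 condensin and cohesin genes 11 fell, and 13 fell without array 1 of SMYD2. The condensin subunits NCAPG and NCAPD2 fell by 0.82 ± 0.07 and 0.82 ± 0.06, and NCAPH by 0.78 ± 0.08. Of the cohesin subunits, SMC3 and SMC1A fell by 0.58 and 0.34, and RAD21, STAG1 and STAG2, the 3 members that did not pass, differed by -0.16, 0.001 and -0.09. Of 23 genes of homologous recombination and the Fanconi pathway 20 fell. FANCI, which marks stalled forks with FANCD2, fell by 0.88 ± 0.07, the helicases BLM and BRIP1 by 0.81 ± 0.09 and 0.77 ± 0.06, and RAD54L by 0.81 ± 0.07. BRIP1 did not pass with the probe set of the largest SD. ATR, the replication stress kinase, rose by 0.17 ± 0.05 but did not pass with the mean of its probe sets. Of 12 genes of mismatch and excision repair, 7 fell, with a median of -0.20, the largest fall being NEIL3, a glycosylase, at 0.75 ± 0.11. Only 4 of the 12 fell without the replicate number in the model.

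The histone lists differed in direction. Of 13 replication-dependent histone genes measured, out of 21 listed, 11 rose and 0 fell, with a median of 0.53, and H2AC4 and H3C2 did not pass. H2AC6, an H2A gene, had 11.28, 11.59 and 11.92 with RB, against 10.05, 10.39 and 10.88 without, and rose by 1.12 ± 0.10. Members of this family are similar in sequence, so probe sets can share targets, and most are read here through a single probe set. Whether these signals come from transcripts that end in the stem-loop or from forms with a poly(A) tail was not tested. Of 14 variant histones and chaperones 10 fell and 0 rose. H2AX, the variant phosphorylated at DNA breaks, had 10.81, 10.94 and 11.17 with RB, against 11.47, 11.59 and 11.66 without, and fell by 0.61 ± 0.04. HMGB2 and the histone chaperone NASP fell by 0.54 ± 0.05 and 0.47 ± 0.05. The list of replication-dependent histone genes and that of variants and chaperones thus passed in opposite directions on the same arrays. The second list also holds genes that are not histones, such as NASP.

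Of 16 Polycomb, heterochromatin and DNA methylation genes 14 fell, with a median of -0.34. PHF19, a Polycomb-like subunit, had 9.38, 9.55 and 9.81 with RB, against 10.14, 10.49 and 10.58 without, and fell by 0.89 ± 0.07. HELLS, a remodeller needed for DNA methylation, fell by 0.74 ± 0.12, SUV39H1, an H3K9 methyltransferase, by 0.73 ± 0.07 and EZH2, the enzyme of Polycomb repressive complex 2, by 0.65 ± 0.06. Of 14 genes of the nuclear lamina and import 11 fell. TMPO fell by 0.72 ± 0.07, LMNB1 and LMNB2, the B-type lamins, by 0.62 ± 0.08 and 0.57 ± 0.05, and LBR, the lamin B receptor, by 0.52 ± 0.07. TMPO did not pass with the probe set of the largest SD. LMNA, for the A-type lamins, differed by -0.03 and did not pass.

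Bone and matrix genes rose in part. Of 23 bone matrix and osteoblast genes 9 rose and 3 fell, and without the replicate number in the model 5 rose and 0 fell. OMD led. It had 5.26, 5.85 and 6.65 with RB, against 4.06, 4.42 and 4.64 without. SPARC, osteonectin, rose by 0.81 ± 0.06 with no overlap, and SPP1, osteopontin, by 0.61 ± 0.11 at a low signal and in 1 of its 2 probe sets. COL1A2, a chain of type I collagen, rose by 0.91 ± 0.06 in 8 of 8 pairs, but replicate 1 read high in all groups and it did not pass without the replicate number. DKK1, a Wnt antagonist, fell by 0.69 ± 0.15 and likewise did not pass without it. RUNX2 and SP7, the transcription factors of the lineage, differed by 0.14 and 0.16 and did not pass.

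Of 32 genes of collagens, matrix and adhesion 19 rose and 3 fell, and 9 rose and 1 fell without the replicate number. COL6A1, of type VI collagen, had 12.99, 13.23 and 13.57 with RB, against 12.27, 12.59 and 12.85 without, and rose by 0.69 ± 0.08. COL6A2 rose by 0.87 ± 0.16, COL12A1 by 0.84 ± 0.14 and the integrin gene ITGA3 by 0.59 ± 0.06. COL6A2 read 11.23 on array 3 of RB, below the 11.56 of array 3 of control, but 11.88 against 10.51 on arrays 4. THBS1, thrombospondin, at 0.86 ± 0.26 (limma adjusted p = 0.0226), lost its call in 5 of the 16 fits that left out an array and without the replicate number.

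Of 24 genes of the lysosome and autophagy 12 rose and 0 fell, and 14 rose and 1 fell without array 1 of SMYD2. WIPI1, an early autophagosome protein, had 9.05, 9.18 and 9.60 with RB, against 8.19, 8.44 and 8.60 without, and rose by 0.82 ± 0.08. LAMP2, of the lysosomal membrane, rose by 0.57 ± 0.07, the protease CTSB by 0.47 ± 0.09 and BECN1, which starts autophagy, by 0.44 ± 0.05. TFEB, the regulator of the pathway, differed by -0.04 and did not pass.

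Of 19 hypoxia-induced genes 8 rose and 1 fell, and 6 rose and 0 fell without the replicate number. STC2, a secreted glycoprotein, had 8.87, 9.48 and 9.94 with RB, against 8.36, 8.56 and 8.80 without, and rose by 0.83 ± 0.09. NDRG1 rose by 0.60 ± 0.05 and P4HA1, a collagen prolyl hydroxylase, by 0.47 ± 0.06. VEGFA, the angiogenic factor, fell by 0.24 ± 0.06 but did not pass without the replicate number. Nor did VEGFA pass with the mean of its probe sets or with that of the largest SD, at -0.05. Of 19 glycolytic genes 3 rose and 3 fell, with a median of -0.03, beside 10.7% of all genes that rose and 10.2% that fell. Of 21 factors secreted by senescent cells 8 rose and 0 fell, and 5 rose without the replicate number. IGFBP5 rose by 0.92 ± 0.22 and MMP14, MMP2 and TIMP2 by 0.46 ± 0.11, 0.44 ± 0.09 and 0.40 ± 0.05. IGFBP5 read 10.27 and 9.07 on arrays 1 and 3 of RB, against 10.32 and 9.33 on those of control. On arrays 4 and 5 it read 10.29 and 10.42, against 8.49 and 8.55. With SMYD2 it was higher with RB at every replicate number. MMP14 read 11.50 and 11.40 on arrays 1 and 3 of RB, against 11.53 and 11.44 in control, and rose on arrays 4 and 5. Neither gene passed without all arrays of replicate 4 or of replicate 5. MMP2 did not pass with the mean of its probe sets. The interleukin and chemokine genes IL6, IL1A, IL1B and CXCL8 of that list did not pass.

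Outside all lists stood 2006 of the genes that rose and 1726 of those that fell. By contrast with the cell cycle lists, 25 interferon-stimulated genes gave 2 rises and 2 falls, 20 genes of the respiratory chain 2 and 2, 13 of cholesterol synthesis 3 rises and 1 fall, and 16 of ribosome biogenesis 0 rises and 4 falls. FBL, the methyltransferase fibrillarin, was the largest of the last, with a fall of 0.61 ± 0.05. The ribosome biogenesis falls were 2 in 8 of the 16 fits that left out an array, and cholesterol synthesis rises were 1 in 5 of them. Their medians lay between -0.01 and 0.04.

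The pooled value averages a difference with SMYD2 and one without it. RB plus SMYD2 against SMYD2 gave 1475 genes (7.46%), 656 higher (3.32%) and 819 lower (4.14%). Leaving out 1 array moved that count to between 419 and 2502. Without array 1 of SMYD2 it was 2495, with 1255 higher and 1240 lower, and without array 1 of RB plus SMYD2 2502, with 1253 higher and 1249 lower. RB against control gave 1546 genes (7.82%), 795 higher (4.02%) and 751 lower (3.8%), and 497 to 1797 with an array left out. The fits shared no array. Over all arrays, called in both were 443 genes higher, 67.5% of those with SMYD2 and 55.7% of those without, and 567 lower, 69.2% and 75.5%. No gene was called in opposite directions. Pooling 16 arrays added 1124 rises and 1030 falls that neither fit of 8 arrays called.

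The interaction term tests whether the difference between arrays with and without RB departs, with SMYD2, from that without SMYD2. It called 0 of 19775 genes, with 786 at an unadjusted p under 0.05 and a smallest limma adjusted p of 0.993. Only control was untransfected, so SMYD2 and transfection cannot be told apart in this term. The same holds for the sizes with and without SMYD2 given below. The genes with the smallest p were CPLX2, PSTPIP2, UCP3, SPC24 and CKS2. SPC24 fell by 1.19 ± 0.10 with SMYD2 and by 0.64 ± 0.08 without, a difference of -0.55 ± 0.13. CKS2, a small CDK subunit, fell by 0.85 ± 0.06 with SMYD2 and by 0.52 ± 0.05 without.

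The sizes of the pooled differences were nevertheless unequal by count. Of the 15 largest decreases 15, and of the 15 largest increases 14, had a larger absolute difference with SMYD2 than without, RB1 being among the 14 and CRYBA2 the exception. Over all genes that share was 60.0%, over the genes that passed 76.7% and over those that fell 85.6%. The kinetochore list had a median of -0.89 with SMYD2 and -0.62 without, and the replication fork list -0.68 and -0.50. Replication-dependent histones had a median of 0.60 with SMYD2 and 0.39 without, and the lysosomal list 0.21 and 0.16. RB1 rose by 1.82 ± 0.24 with SMYD2 and by 1.22 ± 0.14 without. Its rise was larger with SMYD2 at replicates 3, 4 and 5. At replicate 1 it was not, with 7.90 against 6.89 with SMYD2 and 7.40 against 6.24 without. The part of the RB1 level in these sizes was not tested.

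**Figure D4:**
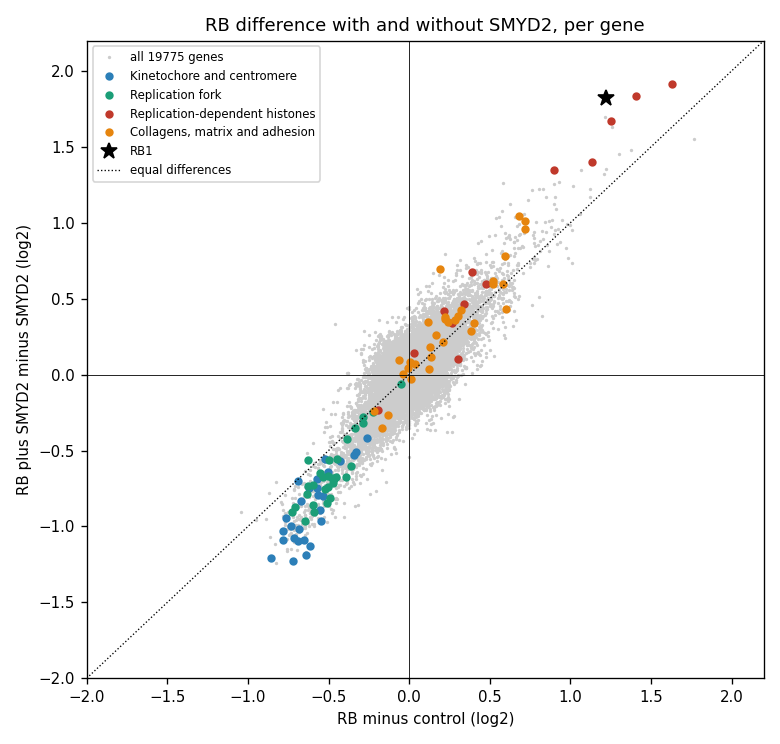
Difference in log2 signal of each of 19775 genes, RB plus SMYD2 minus SMYD2 (vertical axis) against RB minus control (horizontal axis), with members of 4 lists and RB1 (star) in colour and a dotted line of equal differences. Kinetochore and replication fork genes lie below 0 on both axes and mostly under the line, and histone genes lie mostly above it.

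Promoter windows were searched for the motifs shown above, with 15384 of the tested genes having a window. The E2F motif was TTTCCCGC, TTTCGCGC, TTTGCCGC or TTTGGCGC, the CHR was TTTGAA, and CCAAT, the octamer ATTTGCAT and TATAAA were searched as such, each on both strands. E2F letters stood in 9.36% of windows of genes that fell, 3.88% of those that rose and 4.36% of all tested genes. In the 303 windows of genes that fell by at least 0.5 the share was 17.5%, with CHR letters in 33.0% and CCAAT in 53.8%. The replication lists held E2F letters in 39.3% of 56 windows and CHR letters in 5.36%. The mitosis lists held E2F letters in 11.3% of 71 windows and CHR letters in 60.6%. Over all tested genes CHR letters stood in 11.9% and CCAAT in 36.1% of windows. CCAAT stood in 55.4% of the replication windows and in 70.4% of the mitosis windows. The 13 windows of replication-dependent histone genes held CCAAT in 92.3%, the octamer in 61.5% and TATAAA in 76.9%. Over all tested genes these shares were 36.1%, 1.51% and 8.76%. CHR letters stood in 30.8% of the histone windows, also above the 11.9% of all tested genes. Genes that rose as a whole held the octamer in 1.25% and E2F letters near the share of all genes. In the whole table of 27305 windows the shares were 3.33% for E2F, 15.4% for CHR, 35.7% for CCAAT and 1.8% for the octamer. A match is only these letters in this window, and no test was made.

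**Figure D5:**
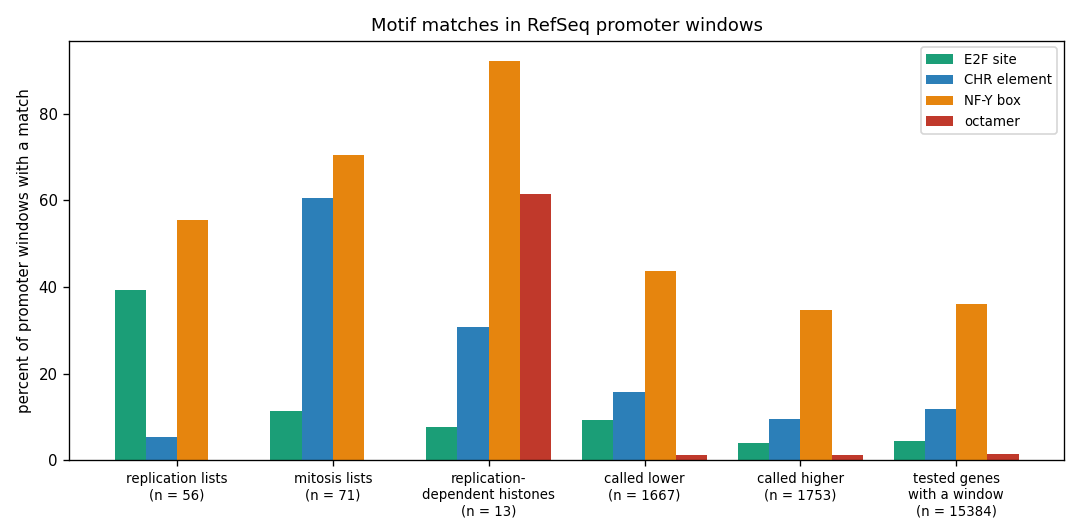
Percent of RefSeq promoter windows with at least 1 match to the E2F motif (green), the CHR (blue), the CCAAT box (orange) and the octamer (red), by gene set, with the number of windows under each set. E2F matches stand highest in the replication lists (39.3%), CHR matches in the mitosis lists (60.6%) and octamers in the histone genes (61.5%).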

How the data were processed

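The authors deposited 1 table of log2 RMA signals for 16 arrays with 54675 probe sets each, per the submitters' processing notes. RMA corrects background, normalizes by quantiles and summarizes probes. No source used here states whether the 16 arrays were normalized as 1 set, and RMA keeps no detection call. A probe set was named from the platform annotation where it carried 1 symbol (41097, of which 41043 matched RefSeq). 1801 carried several symbols and 11777 none. Each of 19775 genes was represented by its brightest probe set on average.

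Differences, with RB minus without RB, came from limma 3.58.1 in R 4.3.3 (lmFit and eBayes with trend), with SMYD2 and replicate number as factors, two-sided, with Benjamini-Hochberg adjustment over all genes and a threshold of 0.05. Adjusted p-values are limma's. Errors of differences are SE of that fit over 8 arrays against 8, or of 4 against 4 where a difference is given with SMYD2 or without it, numbers that limit precision. There were 4 comparisons: the pooled one, the interaction, and RB against control and RB plus SMYD2 against SMYD2 on their own 8 arrays. RB1 was also tested by exact permutation. Same-numbered arrays of the groups compared deviated together from their group means (correlations of 0.188 to 0.492 over genes), and the replicate number was kept as a block. Over all 4 groups, same-numbered arrays correlated at -0.077 to 0.705 and differently numbered ones at -0.596 to 0.522.

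Named were RB1, SMYD2 and L3MBTL1, the 15 largest differences each way with 1 sign in 8 of 8 pairs, the 5 smallest p-values each way, up to 5 members of each list by size, and the 5 smallest interaction p-values. Other genes named, such as CCND1 and ATR, were chosen after their values were seen. The arrays, 39 gene lists and tests were chosen with earlier results of these data known. Replication lists are those of licensing, the fork and deoxynucleotides, and mitosis lists those of kinesins, kinetochore, mitotic kinases and spindle. The fit was tested on simulated data. Alternatives covered the block, probe set choice, dim genes, scaling, array weights, variance settings, the ACTB ratio and arrays left out. Figures used matplotlib 3.10.9.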

Additional observations from a re-analysis of the deposited data

Results flagged for a closer look

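In groups of 8 arrays, 164 sets of values were checked for an array far from the others, and 10 were found. Chance finds about 1 in 20. Of the 10, 9 were array 1 of SMYD2 among the arrays without RB, the array with the highest ACTB ratio. On it CENPE read 8.30, with the nearest other array at 9.13. List means there were 9.81 for origin licensing (nearest 9.96), 9.70 for the replication fork (9.91), 9.72 for cyclins and kinases (9.93), 9.29 for mitotic kinesins (9.59), 9.55 for the kinetochore (9.74) and 9.75 for condensin and cohesin (9.97), each the lowest without RB. The same array was the highest without RB for interferon-stimulated genes, at 6.86 (nearest 6.77), and for markers of endothelium, muscle, nerve and fat, at 5.58 (5.46). The tenth was array 3 of RB plus SMYD2, on which the mean of E2F-linked apoptosis genes was 8.91 (nearest 8.98).

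Probe sets with several gene symbols or none, which name no gene, were fitted apart. Of 13522 such sets 746 (5.52%) passed, 308 higher and 438 lower with RB.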

How the results depend on the processing

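The pooled count of 4121 genes became 2636 with no replicate block and 2486 to 4667 when an array or a replicate number was left out, the lowest without all arrays of replicate 4. The other settings of the pooled fit gave 3389 to 5003. RB against control gave 1546 genes, 687 with no replicate block and 497 to 1797 with an array left out, the lowest without array 4 of RB. It gave 501 without array 4 of control, 872 without array 3 of control or of RB, 857 without array 5 of control and 865 without array 5 of RB. RB plus SMYD2 against SMYD2 gave 1475 genes, 748 with no replicate block and 419 to 2502 with an array left out. It gave 2495 without array 1 of SMYD2 and 2502 without array 1 of RB plus SMYD2, and 419 to 641 without array 3, 4 or 5 of either group. The interaction called 0 genes in every setting run. The RB1 difference was 1.32 to 1.63 with an array left out and 0.0169 in the other RB1 probe set. Of the values of named genes under alternatives, 6634 kept their side of the threshold, 233 lost the call and 24 gained it. The 6634 include changes of sign in genes not called, such as CPLX2, at -0.06 to 0.05 with an array left out. Among called genes 1 value turned: SETD7, at -0.16 with the probe set of the largest SD. The cause was not tested.

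Without the replicate block fewer members of some lists passed, as given beside most (also 1 fall of E2F-linked apoptosis and of interferon-stimulated genes, and 1 rise of cholesterol synthesis and of the respiratory chain), and of the genes named as changed DKK1, COL1A2, THBS1, TGFBI, JUN, MYC, HES1, HEY1, HSPB1, BCL2, BCL2L11 and VEGFA were not called. Without all arrays of replicate 4, DKK1, BCL2, BCL2L11, IGFBP5, MMP14, LEP, SMYD3, SETD7 and ATR were not called. The list counts without that block, without each array in turn and on the arrays with SMYD2 alone were added after seeing the data. Dim genes lie near background, which RMA values do not mark.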

Other observations

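Stress and signalling genes gave mixed counts, to be read beside the 10.7% of all genes that rose and the 10.2% that fell. Of 21 genes of the unfolded protein and ATF4 response 8 rose and 2 fell, and 3 rose and 1 fell without the replicate number in the model. HERPUD1, a factor of protein degradation at the endoplasmic reticulum, had a lowest, median and highest log2 signal of 10.47, 10.68 and 10.85 with RB, against 9.95, 10.16 and 10.32 without, and rose by 0.54 ± 0.05. PHGDH, the first enzyme of serine synthesis, fell by 0.43 ± 0.06. Of 17 p53 targets 4 rose and 2 fell, and 2 rose and 1 fell without the replicate number. TP53INP1 had 8.21, 8.58 and 8.85 with RB, against 7.32, 7.68 and 7.74 without, and rose by 0.98 ± 0.08, although 1 of its 3 probe sets had that sign. POLH, a translesion polymerase, fell by 0.57 ± 0.06. Of 12 apoptosis genes linked to E2F, 3 fell and 0 rose, APAF1 by 0.32 ± 0.07 and BCL2 by 0.27 ± 0.07. BCL2 did not pass without the replicate number, and neither gene passed with the mean of its probe sets. BCL2L11, the third of these, at -0.31 ± 0.11 (limma adjusted p = 0.0467), lost its call in 13 of the 16 fits that left out an array.

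Of 16 immediate early genes 5 rose and 3 fell, and 1 rose and 1 fell without the replicate number. JUN rose by 0.47 ± 0.05 and MYC by 0.43 ± 0.08, each in 8 of 8 pairs with overlapping groups. Of 14 Notch pathway genes 1 rose and 4 fell, and 1 fell without the replicate number. LFNG, a glycosyltransferase that modifies Notch receptors, rose by 0.68 ± 0.10, and the Notch targets HEY1 and HES1 fell by 0.49 ± 0.11 and 0.47 ± 0.13. Of 17 TGF-beta targets 3 rose and 1 fell, and 0 passed without the replicate number. TGFBI, a matrix protein, rose by 0.51 ± 0.07 with the replicate number in the model. Of 13 heat shock and proteasome genes 5 fell and 0 rose, and 8 fell without array 1 of SMYD2 and 3 without array 4 or 5 of any group, and 1 without the replicate number. HSPB1, a small heat shock protein, fell by 0.32 ± 0.07 but did not pass without the replicate number.

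In the SMYD family list of 7 genes, SMYD4 and SMYD5 fell by 0.34 ± 0.08 and 0.22 ± 0.05, and SMYD3 and SETD7 rose by 0.22 ± 0.05 and 0.19 ± 0.05. Neither rise passed without all arrays of replicate 4, and SETD7 did not pass with the mean of its probe sets and turned to -0.16 with the probe set of the largest SD. All 8 arrays with RB lay below all 8 without for SMYD5 alone of these.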
